A study of Mus musculus with 27 samples.

Results

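The 9 genes described here are the autophagy genes Sqstm1, Map1lc3b, Gabarapl1, Gabarapl2, Wipi1, Ulk1, Becn1, Nbr1 and Tfeb. They were chosen by name among the 54532 genes of the count tables, with earlier results of these data known. All 9 were found once each in both tables, and all 9 passed the filter on low counts in every comparison. The cells were splenic B cells of wild-type C57BL6 mice, obtained by negative selection and kept in culture for 3 h, and their poly(A) RNA was sequenced. In experiment 1 there were 5 groups of 4 libraries, namely B cells without stimulus ("unstimulated"), B cells stimulated with LPS (bacterial lipopolysaccharide) or under IL-4+anti-CD40, and cells that received LPS or IL-4+anti-CD40 as well as 1 μM disulfiram (DSF). A figure legend of the study calls the cells with DSF pre-treated and places the RNA 3 h after stimulation. The groups without DSF were the DMSO groups of the labels, and no group held DSF without a stimulus. Experiment 2 had 1 library for each of the same 5 conditions and 1 for each stimulus with ibrutinib, an inhibitor of Bruton's tyrosine kinase. The study calls the libraries of a group biologically independent samples, and whether they came from separate mice is not given in the sources used here, so p-values measure the spread between these libraries.

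Autophagy encloses cytoplasm and damaged material in a double membrane, the autophagosome, which fuses with the lysosome. A kinase complex built on ULK1 starts the process, a lipid kinase complex that holds Beclin 1 marks the membrane, WIPI proteins read that mark, and small ubiquitin-like proteins of the LC3 and GABARAP subfamilies, together called the ATG8 family, are coupled to the membrane. Receptors such as p62, encoded by Sqstm1, and NBR1 bind ubiquitinated cargo and the ATG8 proteins at once, and are themselves degraded with the cargo. TFEB is a transcription factor that controls many autophagy and lysosome genes, and p62 also binds KEAP1, the inhibitor of the transcription factor NRF2. In B cells, autophagy is known for its part in the survival of memory B cells and of plasma cells.

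Several of the genes moved together with DSF, so the sequence before their start sites is given for the 3 whose levels differed most between DSF-treated and untreated cells. The stretches are from RefSeq on GRCm38.p6, read 5′ to 3′ on the strand of the gene and ending at the base before the annotated gene. They lie at chr11:50210828-50211070 (minus strand) for Sqstm1, at chr6:129532942-129533159 (plus strand) for Gabarapl1 and at chr5:110810098-110810331 (minus strand) for Ulk1.
Sqstm1: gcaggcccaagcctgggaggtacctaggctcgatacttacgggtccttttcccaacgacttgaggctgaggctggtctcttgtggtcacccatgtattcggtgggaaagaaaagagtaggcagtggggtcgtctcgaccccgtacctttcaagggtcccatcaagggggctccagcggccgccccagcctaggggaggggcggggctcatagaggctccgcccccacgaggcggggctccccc
Gabarapl1: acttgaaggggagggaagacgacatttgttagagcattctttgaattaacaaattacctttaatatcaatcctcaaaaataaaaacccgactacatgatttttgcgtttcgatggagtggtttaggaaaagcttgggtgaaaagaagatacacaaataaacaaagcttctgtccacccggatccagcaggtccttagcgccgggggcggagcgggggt
Ulk1: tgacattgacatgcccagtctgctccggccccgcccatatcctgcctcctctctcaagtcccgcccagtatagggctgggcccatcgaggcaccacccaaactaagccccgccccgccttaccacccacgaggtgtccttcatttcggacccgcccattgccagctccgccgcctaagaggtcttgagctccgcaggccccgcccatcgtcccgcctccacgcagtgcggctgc
Their G and C content was 64.2% for Sqstm1, 43.6% for Gabarapl1 and 66.2% for Ulk1, and no letter is in capitals because none of the motifs searched was found in them. The motifs were searched on both strands in windows from 250 bases before to 50 bases after the start, in 11 RefSeq entries of 8 of the 9 genes (Becn1 had no entry). They were the E-box CACGTG, the core of the CLEAR motif bound by TFEB (in 7.15% of all 32851 windows), the antioxidant response core TGACNNNGC (12.4%), the paired heat shock unit GAANNTTC (7.86%) and the ATF4 composite element TGATGNAA (3.97%). The single match was TGACTCGGC in Map1lc3b, which fits the antioxidant response core and lies 4 bases after the RefSeq start, at chr8:121590442-121590450. These are matches of letters in short windows and say nothing of whether a factor was bound.

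In the annotation of the files, on GRCm38 (mm10), Sqstm1 lies at chr11:50199366-50210827, Nbr1 at chr11:101552149-101581951, Map1lc3b at chr8:121590361-121598760, Gabarapl1 at chr6:129533160-129542346 and Gabarapl2 at chr8:111940703-111953612. Ulk1 lies at chr5:110784488-110810097, Becn1 at chr11:101285952-101302286, Wipi1 at chr11:109573331-109611967 and Tfeb at chr17:47737030-47792419. All 9 are protein-coding genes, and the values are sums over their exons. The strand setting of the counting is not given in the sources used here, so reads of overlapping genes cannot be told apart. The genes that overlap Sqstm1 and Becn1 had few counts (Mrnip 9 to 49 per library, Cntd1 5 to 32), as had those that overlap Map1lc3b and Gabarapl1 (at most 57).

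Total counts were between 17804851 and 23632992 per library in experiment 1 and between 16049295 and 24619776 in experiment 2. The unstimulated libraries of experiment 1 fell into pairs: replicates 1 and 2 differed by 2-fold or more in 1.86% of 14426 genes and replicates 3 and 4 in 2.42%, whereas libraries from different pairs differed in 14.4% to 14.8%. The IL-4+anti-CD40 libraries split in the same way, with 2.68% and 3.17% within and 4.59% to 7.38% between the pairs. For the 9 genes, values that changed by more than 1.5 times or changed their call with a pair left out are therefore also given without it, here or with the processing alternatives. For the group that was split, such a fit measures only the spread within the pair that is left. Its calls therefore do not take in the difference between the pairs, and the log2 values show how far the pairs lie apart. The summed level of 5 B cell markers (Ms4a1, Cd79a, Cd79b, Cr2 and Fcer2a) was 1941 to 6318 CPM in the 20 libraries, and that of 5 T cell markers was at most 6.86. CPM here are counts scaled to one library total with TMM normalization, and levels are in CPM unless they are called FPKM, the authors' values per gene length, which alone are used to compare genes with each other. In whole-population RNA a smaller share of cells that express a gene and less RNA per cell cannot be told apart.

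Under LPS, DSF raised all 9 genes, and no DSF-treated library of any of them overlapped an untreated one. The log2 fold changes ran from 0.30 ± 0.043 (SE) for Becn1 to 3.38 ± 0.052 for Sqstm1 (edgeR's quasi-likelihood test, adjusted p at most 0.00168, n = 4 per group). Among all 14154 genes tested, 35.1% were called higher and 36.0% lower in this comparison, and 25.5% were higher without overlap. Of the 9 genes, 5 were at least 2-fold higher, against 11.4% of all genes, and their median log2 fold change was 1.06 against 0.0019 over all genes tested. Under IL-4+anti-CD40, DSF again raised all 9, without overlap, by 0.11 ± 0.043 for Becn1 up to 2.34 ± 0.29 for Sqstm1. In that comparison 30.1% of 14275 genes were called higher, 31.6% lower, 27.2% were higher without overlap and 9.59% were at least 2-fold higher. There 6 of the 9 were at least 2-fold higher, with a median log2 fold change of 1.21 against -0.015 over all genes. Because the 9 genes were chosen with earlier results of these data known, the shares over all genes are given as description only. The 9 genes were not evenly affected: Sqstm1, Gabarapl1 and Ulk1 stood apart from the other 6, whose log2 fold changes were between 0.11 and 1.24 in both comparisons.

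**Figure D1:**
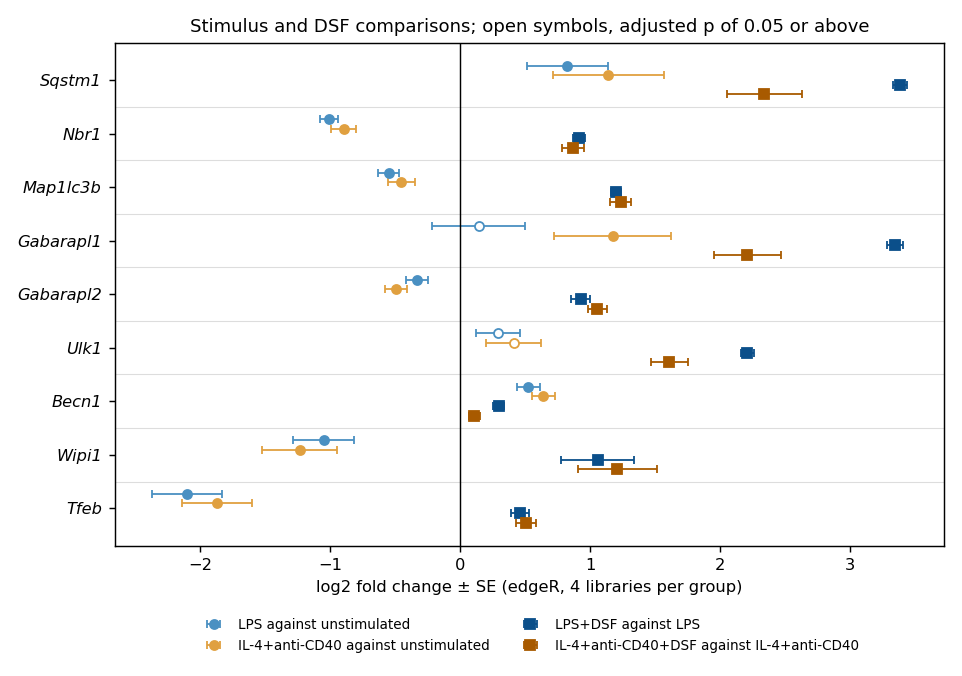
Log2 fold changes of the 9 genes (x axis, ± SE, edgeR, 4 libraries per group) for each stimulus against unstimulated B cells (circles) and for DSF against the same stimulus alone (squares). The squares all lie right of 0, whereas the circles lie on both sides, with Tfeb farthest to the left at -2.10 under LPS.

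Sqstm1, the gene of the cargo receptor p62, was the most changed. Its level was 469, 456, 191 and 175 CPM in the unstimulated libraries and 572, 587, 622 and 601 under LPS. Under LPS and DSF it was 5164, 5617, 5886 and 6293. This was 10.4 times the level under LPS alone (adjusted p = 3.34e-25, edgeR), and every treated library was far above every untreated one. Under IL-4+anti-CD40 the 4 libraries had 406, 438, 821 and 1174 CPM, and with DSF 3349, 3439, 3670.5 and 3849. The untreated libraries were thus far apart from each other while the treated ones were close together. The fold change here was 5.07 (adjusted p = 3.32e-05), and the pairs of untreated libraries moved it: the log2 value was 3.09 with replicates 1 and 2 alone and 1.86 with replicates 3 and 4 alone, against 2.34 with all 4.

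Per gene length, Sqstm1 went from 161 to 175 FPKM under LPS, where it ranked 268th to 293rd of all genes in a library, to 1588 to 1876 FPKM under LPS and DSF, where it ranked 18th in each library. Under IL-4+anti-CD40 it ranked 95th to 348th, and with DSF added 35th to 40th. Its reads made up 0.0567% ± 0.0020 (SD, n = 4) of all counts under LPS and 0.512% ± 0.030 under LPS and DSF. Ranked from the largest increase down, its log2 fold change was 96th of the 14154 genes tested under LPS and 180th of 14275 under IL-4+anti-CD40, so many genes rose further.

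**Figure D2:**
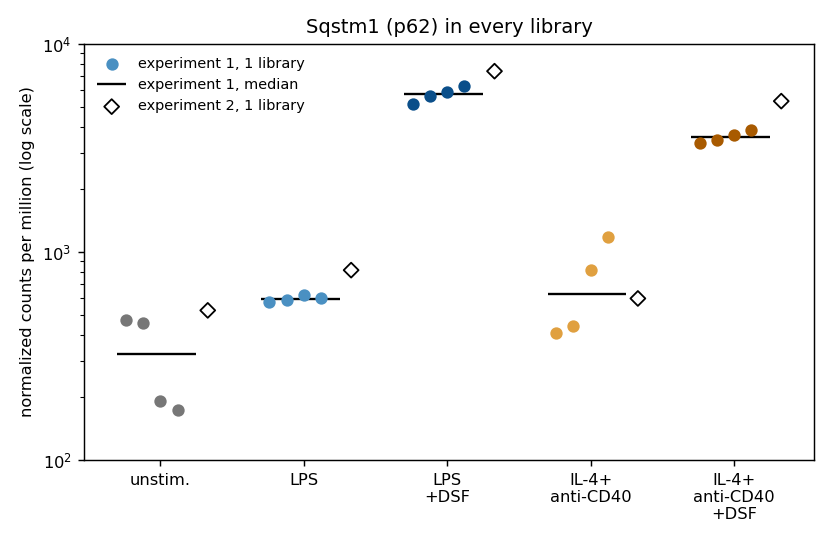
Sqstm1 in every library, as normalized CPM on a log axis, by condition (filled points, the 4 libraries of experiment 1 in replicate order; lines, their medians; open diamonds, the single library of experiment 2). The libraries with DSF all lie at 3349 or above and those without it at 1174 or below, and the unstimulated and IL-4+anti-CD40 libraries fall into 2 pairs each.

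Nbr1 encodes the other receptor of the set, which shares the domain plan of p62 and works beside it on ubiquitinated cargo. It was highest without a stimulus, at 112, 104, 119 and 114 CPM. It was 55.3, 61.8, 58.0 and 60.0 under LPS and 103, 98.2, 102 and 107 under LPS and DSF. Under IL-4+anti-CD40 it was 52.2, 58.3, 62.03 and 70.3, and with DSF 104, 117, 106 and 113. Both stimuli thus lowered Nbr1 to near one level, and DSF raised it close to the unstimulated level. The log2 fold change with DSF was 0.92 ± 0.048 under LPS and 0.87 ± 0.084 under IL-4+anti-CD40 (adjusted p 8.77e-15 and 6.19e-06, edgeR). Against unstimulated cells it was -0.12 ± 0.067 for LPS+DSF and -0.01 ± 0.070 for IL-4+anti-CD40+DSF, neither of which passed the test, and the ranges overlapped. With total counts both were called lower (-0.52 and -0.32), and the first was also called without unstimulated replicates 1 and 2 (-0.19).

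The ATG8 genes of the set are Map1lc3b, whose product LC3B is the usual marker of autophagosomes, and Gabarapl1 and Gabarapl2 of the GABARAP subfamily. Map1lc3b had 120.3, 120.8, 94.1 and 97.0 CPM in unstimulated cells, 77.3, 78.8, 77.1 and 76.1 under LPS, and 159, 165, 162 and 171 under LPS and DSF. It had 76.7, 70.5, 76.3 and 92.7 under IL-4+anti-CD40, and 175, 177, 198 and 191 with DSF. Every DSF-treated library was therefore above every unstimulated one, and every stimulated library without DSF was below. DSF raised it by 1.20 ± 0.040 under LPS and by 1.24 ± 0.081 under IL-4+anti-CD40 on the log2 scale.

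Gabarapl1 changed much more than its relatives. It had 25.5, 21.8, 8.02 and 8.18 CPM without stimulus, 17.0, 18.7, 20.05 and 17.5 under LPS, and 152, 171, 177 and 190.1 under LPS and DSF. Under IL-4+anti-CD40 it had 21.5, 22.5, 42.0 and 57.5, and with DSF 162, 164, 159 and 175. The treated libraries of both stimuli reached overlapping levels although the untreated ones started apart. The folds with DSF were 10.2 under LPS (adjusted p = 1.00e-23) and 4.62 under IL-4+anti-CD40 (adjusted p = 2.31e-05). Left to replicates 1 and 2 of the untreated IL-4+anti-CD40 group, the log2 fold change was 2.91, and left to replicates 3 and 4 it was 1.75, against 2.21 with all.

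Gabarapl2 had 41.9, 40.5, 36.4 and 41.4 CPM in unstimulated cells, 33.9, 28.6, 35.4 and 35.9 under LPS, and 48.0, 61.6, 62.4 and 62.7 under LPS and DSF. Under IL-4+anti-CD40 it had 26.3, 29.1, 26.9 and 31.7, and with DSF 55.8, 56.2, 64.2 and 59.6. As for Map1lc3b, cells with a stimulus alone were lowest and DSF-treated cells highest. Unlike for Map1lc3b, the median under LPS and DSF was above that under IL-4+anti-CD40 and DSF, with overlapping ranges. The log2 fold changes with DSF were 0.93 ± 0.074 and 1.06 ± 0.076.

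**Figure D3:**
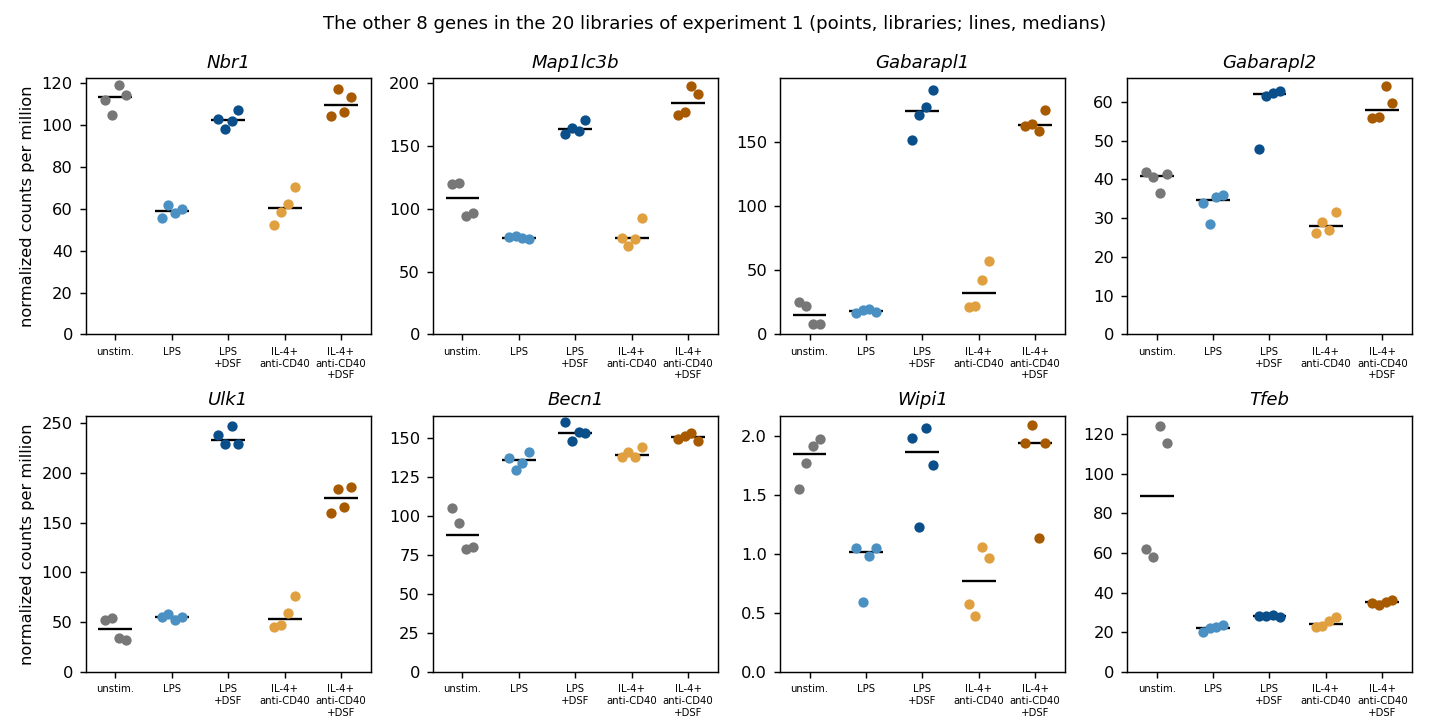
The other 8 genes in the 20 libraries of experiment 1, as normalized CPM (y axes from 0, a scale for each gene; points, libraries in replicate order; lines, medians). In each panel the DSF-treated libraries lie above those with the same stimulus alone, and Tfeb is the gene whose unstimulated libraries, at 58.1 to 124, stay above all others.

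As a family and per gene length, the 5 ATG8 genes measured (these 3 with Gabarap and Map1lc3a) summed to a median of 105 FPKM under LPS and 303 under LPS and DSF, and to 119 and 334 under IL-4+anti-CD40. Gabarap was the largest part everywhere. Within that sum the share of Gabarapl1 rose from 8.07% ± 0.47 (SD, n = 4) to 28.9% ± 0.65 under LPS and from 13.6% ± 4.5 to 24.6% ± 1.2 under IL-4+anti-CD40 (exact permutation test, two-sided, p = 0.0286 each, adjusted p = 0.0317 over 10 tests). This is the smallest p that 4 against 4 libraries allow. The share of Gabarap fell from 63.1% ± 1.3 to 49.98% ± 0.25 and from 62.6% ± 2.4 to 55.7% ± 0.87, with the same exact p of 0.0286. The shares of Gabarapl2 and Map1lc3b were also lower with DSF under both stimuli, and that of Map1lc3a under LPS (each adjusted p = 0.0317 in the exact permutation test), although every one of the 5 genes rose in level. For Map1lc3a under IL-4+anti-CD40 the share was 5.62% ± 0.62 without and 4.72% ± 0.30 with DSF, which did not pass (exact permutation p = 0.0857). The shares are parts of the same sum, so a larger share of Gabarapl1 leaves a smaller share for the others together. The 10 tests are therefore not independent of each other.

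**Figure D4:**
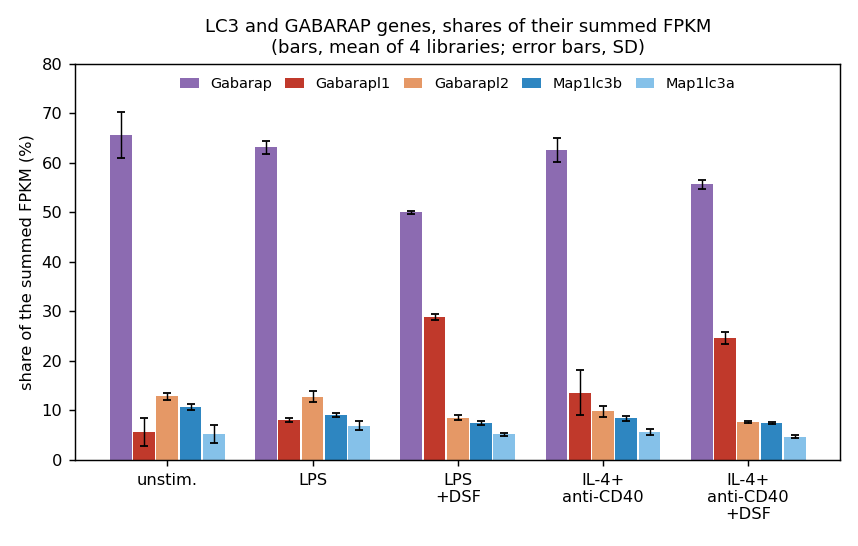
Share of each of 5 LC3 and GABARAP genes in their summed FPKM (y axis, percent; bars, mean of 4 libraries of experiment 1; error bars, SD), by group. The share of Gabarapl1 is 28.9% under LPS and DSF and 24.6% under IL-4+anti-CD40 and DSF, above its share in the other 3 groups, and Gabarap holds the largest share in all 5.

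Of the genes that start and shape the autophagosome, Ulk1, the kinase gene, changed most. It had 52.1, 54.6, 33.9 and 31.5 CPM without stimulus and 55.1, 58.6, 51.6 and 55.2 under LPS, and then 238, 229, 247 and 229 under LPS and DSF. Under IL-4+anti-CD40 it had 45.4, 47.2, 59.6 and 76.7, and with DSF 160, 184, 166 and 186. All DSF-treated libraries lay above all the others, by folds of 4.63 under LPS and 3.06 under IL-4+anti-CD40 (adjusted p 1.47e-22 and 3.64e-06, edgeR).

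Becn1, the gene of the Beclin 1 subunit of the lipid kinase complex, changed least with DSF. Its levels were 105, 95.4, 78.7 and 80.3 CPM in unstimulated cells, 137, 129, 134 and 141 under LPS and 160.1, 148, 154 and 153 under LPS and DSF. They were 137, 141, 138 and 144 under IL-4+anti-CD40, and 149, 151, 153 and 148 with DSF. The groups did not overlap, but under IL-4+anti-CD40 the fold was 1.08 (log2 0.11 ± 0.043, adjusted p = 0.0400). This call was lost when IL-4+anti-CD40 replicate 1 or 3 or any of the 4 DSF-treated libraries was left out (adjusted p 0.0641 to 0.114), and without replicates 1 and 2 together (0.0806). With total counts as the scaling, which puts the median log2 fold change of all genes at -0.21 under LPS and -0.16 under IL-4+anti-CD40, the log2 fold changes of Becn1 were 0.09 (adjusted p = 0.0723) and -0.04 (adjusted p = 0.482), while the other 8 genes kept their direction and their call.

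Wipi1, which reads the lipid mark on the forming membrane, was close to the lower end of detection, with 10 to 48 counts per library. It had 1.55, 1.77, 1.92 and 1.97 CPM without stimulus, 1.05, 0.59, 0.98 and 1.05 under LPS, and 1.98, 1.23, 2.06 and 1.76 under LPS and DSF. It had 0.57, 0.48, 1.06 and 0.96 under IL-4+anti-CD40, and 1.94, 2.09, 1.13 and 1.93 with DSF. The lowest treated library lay just above the highest untreated one under each stimulus, and the log2 fold changes of 1.06 ± 0.28 and 1.21 ± 0.30 passed the test (adjusted p 0.00168 and 0.00479).

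Tfeb, the transcription factor gene, followed its own course. It had 61.8, 58.1, 124 and 115 CPM in unstimulated cells and dropped to 20.2, 22.2, 22.4 and 23.7 under LPS and 22.6, 22.9, 25.6 and 27.9 under IL-4+anti-CD40. With DSF it was 28.3, 28.2, 28.8 and 27.5 under LPS and 34.9, 33.5, 35.4 and 36.3 under IL-4+anti-CD40. DSF thus raised it without overlap, by 0.46 ± 0.069 and 0.51 ± 0.078 on the log2 scale, to levels that were still below every unstimulated library.

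The question of the stimulus comparisons is what B cell activation itself did to these genes. Under LPS, 2 of the 9 genes were called higher and 5 lower than in unstimulated cells, against 29.6% and 33.3% of 14477 genes, so the higher calls were no larger a share than among all genes. Under IL-4+anti-CD40, 3 were called higher and 5 lower, against 30.4% and 32.1% of 14433 genes. The same 5 genes were lower with each stimulus, without overlap, as were 28.4% and 30.4% of all genes: Tfeb by -2.10 ± 0.27 and -1.87 ± 0.27 on the log2 scale, Wipi1 by -1.05 ± 0.23 and -1.23 ± 0.29, Nbr1 by -1.01 ± 0.069 and -0.89 ± 0.096, Map1lc3b by -0.55 ± 0.083 and -0.45 ± 0.11, and Gabarapl2 by -0.33 ± 0.085 and -0.49 ± 0.086. Both comparisons share the unstimulated libraries. With the unstimulated replicates 3 and 4 left out the value for Tfeb under LPS was -1.49, and with replicates 1 and 2 left out it was -2.50.

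Becn1 was higher with each stimulus, by 0.53 ± 0.087 under LPS and 0.64 ± 0.090 under IL-4+anti-CD40 (adjusted p 0.000782 and 0.000264, edgeR), and its groups did not overlap (32.2% and 29.8% of all genes were higher without overlap). Sqstm1 was 0.83 ± 0.31 higher under LPS (adjusted p = 0.0431) and 1.14 ± 0.43 higher under IL-4+anti-CD40 (adjusted p = 0.0420), where the ranges overlapped. The call under LPS was lost when unstimulated replicate 3 or 4, or any of the 4 LPS libraries, was left out (adjusted p 0.0727 to 0.0848) and with total counts (0.58, adjusted p = 0.144), and the log2 value was 1.64 with unstimulated replicates 3 and 4 alone and 0.32 with replicates 1 and 2 alone, both of which passed. The call under IL-4+anti-CD40 was lost without replicate 3 or 4 of either group (adjusted p 0.0905 to 0.127). Gabarapl1 passed under IL-4+anti-CD40 (1.18 ± 0.45, adjusted p = 0.0455) and lost that call without the same libraries. With unstimulated replicates 1 and 2 alone neither gene was called under IL-4+anti-CD40 (Sqstm1 0.61, Gabarapl1 0.59), nor was either with IL-4+anti-CD40 replicates 1 and 2 alone (0.43 and 0.51), whereas with unstimulated replicates 3 and 4 alone both were (1.95 and 2.14). Without IL-4+anti-CD40 replicates 1 and 2, Map1lc3b was not called lower (-0.33, adjusted p = 0.0998). Under LPS, Gabarapl1 did not pass (0.14 ± 0.36, adjusted p = 0.744). Its direction there depended on the pair, at 1.11 with unstimulated replicates 3 and 4 alone and -0.42 with replicates 1 and 2 alone. Ulk1 did not pass with either stimulus (0.29 ± 0.17 and 0.41 ± 0.21, adjusted p 0.154 and 0.121), although under LPS it passed when unstimulated replicate 2 was left out (0.44, adjusted p = 0.0396). Under IL-4+anti-CD40 it passed in the fit of all 20 libraries (0.36, adjusted p = 0.0498), and with unstimulated replicates 3 and 4 alone it passed under both stimuli (0.69 and 0.80).

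Between the stimuli, 1 of the 9 genes was called: Gabarapl1 was lower under LPS than under IL-4+anti-CD40 by -0.98 ± 0.27 (adjusted p = 0.0133), where 17.3% of 14078 genes were lower and 22.3% higher. The number called higher was 0 with edgeR and with DESeq2, and at an unadjusted p under 0.05 it was 1, Gabarapl2 at 0.22 ± 0.087 (adjusted p = 0.0680), which passed without LPS replicate 2 or IL-4+anti-CD40 replicate 4. Against IL-4+anti-CD40 replicates 1 and 2 alone Gabarapl1 was at -0.27 and against replicates 3 and 4 alone at -1.47, both called. The Sqstm1 levels of the stimuli overlapped, and against IL-4+anti-CD40 replicates 1 and 2 alone LPS was higher by 0.49, against replicates 3 and 4 alone lower by -0.77. Ulk1 turned likewise (0.24 and -0.33, both called), Gabarapl2 was called higher against the first pair (0.26), and Nbr1 (-0.20) and Tfeb (-0.30) were called lower against the second.

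Set against unstimulated cells, the stimulus and DSF together gave 6 higher genes (Sqstm1, Map1lc3b, Gabarapl1, Gabarapl2, Ulk1 and Becn1) and 1 lower gene (Tfeb) under each stimulus, without overlap. The background was 34.3% higher and 37.3% lower of 14663 genes under LPS and 33.4% and 35.3% of 14678 under IL-4+anti-CD40. Without overlap, 32.5% were higher and 35.7% lower under LPS and DSF, and 31.6% and 33.4% under the other stimulus and DSF. Sqstm1 was 18.1-fold above the unstimulated level under LPS and DSF and 11.3-fold under IL-4+anti-CD40 and DSF, Gabarapl1 11.01-fold and 10.5-fold, and Ulk1 5.57-fold and 4.10-fold. These values moved with the unstimulated pair. On the log2 scale Sqstm1 was at 3.63 and 2.95 against replicates 1 and 2 alone and at 4.97 and 4.29 against replicates 3 and 4 alone, and Gabarapl1 at 2.86 and 2.79 and at 4.41 and 4.35, all called. Tfeb stayed at -1.66 ± 0.26 and -1.35 ± 0.25 on the log2 scale. Wipi1 (-0.02 ± 0.22 and -0.01 ± 0.23) and Nbr1 did not pass the test. With total counts Map1lc3b and Gabarapl2 were no longer called under LPS and DSF (0.21, adjusted p = 0.0827, and 0.16, adjusted p = 0.147).

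The effect of DSF differed between the stimuli for 3 of the 9 genes, against 7.92% of 15130 genes with a larger and 6.96% with a smaller log2 change under LPS. The difference, the log2 effect under LPS less that under IL-4+anti-CD40, was 1.03 ± 0.30 for Sqstm1 (adjusted p = 0.0233, edgeR interaction term over 16 libraries), 1.13 ± 0.28 for Gabarapl1 (adjusted p = 0.00943) and 0.59 ± 0.15 for Ulk1 (adjusted p = 0.0130). The size depended on the pair of untreated IL-4+anti-CD40 libraries: with replicates 1 and 2 alone the differences were 0.29 for Sqstm1, 0.44 for Gabarapl1 and 0.30 for Ulk1, and with replicates 3 and 4 alone 1.52, 1.59 and 0.83. All were called, but for the untreated IL-4+anti-CD40 group these calls rest on the spread within a pair only. In a fit of all 20 libraries none of the 9 was called (Sqstm1 0.97, adjusted p = 0.1998), and on the FPKM with limma Ulk1 alone was. For Becn1 the difference was 0.18 ± 0.061 (adjusted p = 0.0525), and for the other 5 it was between -0.16 and 0.04 with adjusted p from 0.501 to 0.845.

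Ordered by median, Sqstm1, Gabarapl1, Ulk1 and Becn1 shared one order at the ends, with unstimulated cells lowest and LPS+DSF highest. Neighbours whose ranges overlapped were LPS and IL-4+anti-CD40 for Sqstm1, Ulk1 and Becn1, the 2 DSF-treated groups for Gabarapl1 and Becn1, unstimulated cells and LPS for Gabarapl1, and unstimulated cells and IL-4+anti-CD40 for Ulk1. Map1lc3b, Gabarapl2 and Wipi1 were lowest with the stimuli alone, whose ranges overlapped for all 3. Nbr1 and Tfeb were highest in unstimulated cells. Over the 20 libraries the genes whose log2 CPM followed that of Sqstm1 most closely among 14426 were Spag9, a scaffold of JNK signalling (Pearson's r = 0.993), Ulk1 (0.992), Igf2r, the mannose 6-phosphate receptor that sorts lysosomal enzymes (0.992), Pip5k1a, a phosphatidylinositol phosphate kinase (0.991), and Ppp1r10, a regulatory subunit of protein phosphatase 1 (0.990). Gabarapl1 was 41st (0.980), Map1lc3b 1305th (0.816), Gabarapl2 1598th (0.780), Becn1 1677th (0.770), Nbr1 4551st (0.384) and Wipi1 4590th (0.378), and Tfeb ran the other way (-0.392). These correlations are descriptions: the 20 points belong to 5 groups and share the contrast between DSF and no DSF.

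Other genes of autophagy, of the lysosome and of the KEAP1 and NRF2 axis were looked at through 9 lists, also chosen with earlier results of these data known. The lists held 101 genes in all, of which 99 were tested. With DSF, 66 were higher and 23 lower under LPS, and 66 higher and 15 lower under IL-4+anti-CD40, with median log2 fold changes of 0.58 and 0.79. Under each stimulus, 26 of the higher genes came from the 30 lysosome genes and 8 from the 9 KEAP1 and NRF2 genes. The lists of autophagy genes proper were more mixed than the pooled counts. Over all genes 35.1% were higher and 36.0% lower under LPS and 30.1% and 31.6% under IL-4+anti-CD40, with medians of 0.0019 and -0.015, and the counts of each list below stand against these shares. With IL-4+anti-CD40 replicates 1 and 2 or replicates 3 and 4 left out, 66 were higher again, and 14 or 15 lower. Of 35 genes that led their lists, all 35 kept their direction in both cases and 33 their call, the others being Ulk2 and Atg4a. Of the ULK1 partners, Rb1cc1, the scaffold FIP200, rose by 1.05 ± 0.044 under LPS and 1.04 ± 0.063 under IL-4+anti-CD40, and Atg13 and Atg101 were also higher, whereas the second kinase gene Ulk2 was lower (-0.46 ± 0.060 and -0.22 ± 0.067). Becn1's partners in the VPS34 complex went both ways, with 3 of 7 higher and 4 lower under LPS. Atg14, the subunit that directs the complex to autophagy, rose by 1.93 ± 0.082 and 1.4999 ± 0.14, while Rubcn, an inhibitor of the complex, fell by 1.19 and 0.68, Nrbf2 fell by 0.70 and 0.56, and Pik3c3, the catalytic subunit, fell by 0.34 and 0.21.

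Among the lipid transfer and WIPI proteins, 5 of 6 tested genes were higher under LPS and 4 higher and 1 lower under IL-4+anti-CD40. Atg2a, a lipid transfer protein, rose by 2.43 ± 0.054 and 1.72 ± 0.12, Wdr45 by 1.02 ± 0.086 and 1.05 ± 0.13, and Wipi2 by 0.77 ± 0.044 and 0.70 ± 0.056. The list of ATG8 conjugation genes, which also holds Gabarap and Map1lc3a, was mixed, with 4 of 13 higher and 5 lower under LPS, 4 higher and 3 lower under IL-4+anti-CD40, and medians of -0.03 and 0.01. Gabarap rose by 1.17 ± 0.046 and 1.24 ± 0.079, Map1lc3a by 1.10 ± 0.095 and 1.17 ± 0.085 and Atg12, a ubiquitin-like conjugation factor, by 0.80 ± 0.052 and 0.78 ± 0.069, and the protease gene Atg4a fell by 0.76 and 0.28.

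Of 10 other autophagy receptors tested, 6 were higher and 2 lower under LPS (all genes 35.1% and 36.0%) and 8 higher and 1 lower under IL-4+anti-CD40 (30.1% and 31.6%). Retreg1, a receptor for the endoplasmic reticulum, rose by 1.09 ± 0.048 and 1.49 ± 0.13, Optn by 1.03 ± 0.049 and 0.99 ± 0.11 and Tax1bp1 by 0.95 ± 0.040 and 1.01 ± 0.062, both receptors for ubiquitinated cargo, while the ferritin receptor Ncoa4 fell by 0.55 and 0.64. The 11 genes of autophagosome fusion were divided, 5 higher and 6 lower under LPS and 5 higher and 4 lower under IL-4+anti-CD40, where all genes gave 35.1% and 36.0%, and 30.1% and 31.6%. Tecpr1, a tether of autophagosomes, was far above the rest at 3.08 ± 0.054 and 2.55 ± 0.35 (1.98 and 3.53 with the pairs of untreated IL-4+anti-CD40 libraries left out in turn), and Vps18, Rab7 and Vps11 rose by 0.68 to 0.91 in both comparisons.

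Tfeb's relatives and the Rag and folliculin genes that hold it in the cytoplasm, 9 in all, had 6 higher and 2 lower under LPS and 6 higher and 1 lower under IL-4+anti-CD40. The leading genes were Rragd (3.51 ± 0.14 and 2.03 ± 0.32), Fnip2 (1.88 ± 0.16 and 1.18 ± 0.19), Fnip1 (1.62 ± 0.060 and 1.36 ± 0.13) and Flcn (1.04 ± 0.047 and 1.07 ± 0.097). The relatives Tfe3 and Mitf, named after their values were seen, went different ways. Tfe3 was at -0.24 ± 0.045 and -0.04 ± 0.054 (adjusted p 4.58e-05 and 0.508, edgeR), and Mitf at 0.68 ± 0.16 and 0.98 ± 0.21. Of 30 lysosome genes, 26 were higher under each stimulus, with 2 lower under LPS and 1 under IL-4+anti-CD40 and medians of 0.90 and 1.09, where the shares over all genes were 35.1% and 30.1% higher and 36.0% and 31.6% lower. The largest were Gla, alpha-galactosidase (3.74 ± 0.089 and 3.05 ± 0.33), Ctsd, cathepsin D (2.75 ± 0.067 and 2.18 ± 0.19), Lamp1, a lysosomal membrane protein (2.14 ± 0.043 and 1.85 ± 0.14), and Ctsa, cathepsin A (1.85 ± 0.050 and 1.66 ± 0.13). Of the 9 genes of the KEAP1 and NRF2 axis, which p62 touches through KEAP1, 8 were higher and 1 lower under LPS and 8 higher under IL-4+anti-CD40, with Hmox1, heme oxygenase 1, at 6.99 ± 0.065 and 3.92 ± 0.80. With the same pairs left out in turn, the value of Hmox1 under IL-4+anti-CD40 was 3.03 and 6.79, that of Rragd 1.46 and 3.00 and that of Gla 2.51 and 3.95. The gene lowered under LPS, named after its values were seen, was Keap1 itself at -0.38 ± 0.054 (adjusted p = 8.00e-07, edgeR), and under IL-4+anti-CD40 it was at 0.01 ± 0.068 (adjusted p = 0.903).

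The stimuli alone lowered more of the genes of these lists than they raised. Of the 99 genes, 10 were higher and 62 lower under LPS than in unstimulated cells, and 20 higher and 51 lower under IL-4+anti-CD40, with medians of -0.37 and -0.30. Over all genes 29.6% were higher and 33.3% lower under LPS and 30.4% and 32.1% under IL-4+anti-CD40, with medians of -0.05 and -0.04. With a pair of unstimulated or IL-4+anti-CD40 libraries left out, 12 to 29 of the 99 were higher and 34 to 70 lower, the fewest lower without IL-4+anti-CD40 replicates 1 and 2. Of the 30 lysosome genes, 20 were lower under LPS and 19 under IL-4+anti-CD40. The KEAP1 and NRF2 list went another way, with 1 higher and 1 lower of 9 under LPS (median 0.04) and 4 higher and 1 lower under IL-4+anti-CD40 (median 1.49). It depended on the libraries: without unstimulated replicates 1 and 2, 7 were higher under each stimulus. Without unstimulated replicates 3 and 4, 4 were higher and 5 lower under LPS, and 2 higher and 3 lower under IL-4+anti-CD40. Without IL-4+anti-CD40 replicates 3 and 4 the number higher under IL-4+anti-CD40 was 0. Genes of other cells moved with these comparisons too. The summed level of 5 myeloid markers was 509 to 639 CPM in unstimulated libraries, 119 to 134 under LPS, 128 to 134 under LPS and DSF, 168 to 198 under IL-4+anti-CD40 and 199 to 276 under IL-4+anti-CD40 and DSF. No myeloid marker was at 0 in any group, and 4 of the 5 were lower with each stimulus. With DSF, 2 of them were higher and 1 lower under LPS, and 3 were higher under IL-4+anti-CD40. The B cell markers summed to 2835 to 2967 CPM under LPS and 1941 to 2194 under LPS and DSF, where 5 of 5 were lower, and to 4886 to 6318 and 3180.03 to 3354 under IL-4+anti-CD40 without and with DSF, where 3 were lower and 1 higher. Markers of plasma cells (Sdc1, Prdm1 and Irf4) summed to 212 to 473 CPM in unstimulated libraries, 1666 to 1702 under LPS, 1819 to 1986 under LPS and DSF, 1072 to 1152 under IL-4+anti-CD40 and 1177 to 1252 under IL-4+anti-CD40 and DSF. These 3 genes did not move together, with 1 called higher and 1 lower under each stimulus. With DSF, 2 were higher and 1 lower under LPS, and 1 was higher under IL-4+anti-CD40. Neutrophil, erythroid and NK cell markers stayed at or below 38.0, 11.2 and 4.43 CPM in sum. The part of these genes in the results for the autophagy genes was not tested.

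Experiment 2 repeated the conditions with 1 library each, so no test was made, and the intervals below cover counting error only. The counts of Sqstm1 were 11254 unstimulated, 14860 under LPS and 125157 under LPS and DSF, and 10946 under IL-4+anti-CD40 and 74855 with DSF. After TMM this was a ratio of 9.05 under LPS (log2 3.18, 95% interval 3.15 to 3.20) and 8.89 under IL-4+anti-CD40 (3.15, 3.12 to 3.18), so here the ratios of the stimuli were close. Those of Gabarapl1 and Ulk1, below, were not larger under LPS, unlike in experiment 1. They were higher under IL-4+anti-CD40, but the intervals of the stimuli overlapped for both genes. Of the 9 genes, 7 were at least 2-fold higher with DSF under LPS, against 20.3% of 14275 genes, and 8 under IL-4+anti-CD40, against 21.9%, and none was 2-fold lower (19.5% and 20.3%). With total counts as the scaling, 5 and 7 were 2-fold higher. The medians over the 9 genes were 1.38 and 2.07 on the log2 scale, against -0.04 and -0.01 over all genes.

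Gabarapl1 went from 670 to 3872 counts under LPS (log2 2.63, interval 2.51 to 2.75) and from 536 to 2983 under IL-4+anti-CD40 (2.85, 2.72 to 2.99). Ulk1 went from 1251 to 6881 (2.56, 2.47 to 2.65) and from 940 to 4404 (2.60, 2.50 to 2.71). Map1lc3b had ratios of 3.28 and 4.19, Gabarapl2 of 2.60 and 3.41 and Nbr1 of 2.45 and 2.81, each larger than the fold in experiment 1. The genes under 2-fold were Becn1, at 1.24 and 1.21, and Tfeb under LPS, at 1.38. Wipi1 went from 38 to 78 counts and from 9 to 63, the second on so few counts that its interval ran from 1.93 to 4.14 on the log2 scale.

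Ibrutinib, given with the same stimuli, left the 9 genes within 2-fold of the untreated library, whereas 2.81% of 14275 genes were 2-fold higher and 2.47% lower under LPS and 2.23% and 1.69% under IL-4+anti-CD40. The count of Sqstm1 was 20252 under LPS and ibrutinib (ratio 1.04, log2 0.06, interval 0.03 to 0.09) and 14322 under IL-4+anti-CD40 and ibrutinib (0.93, -0.11, -0.15 to -0.08). Ulk1 had the highest ratio under LPS, 1.65, and 1.33 under IL-4+anti-CD40. Tfeb was lower with both, at 0.75 and 0.82, where DSF gave 1.38 and 2.05. Wipi1 under IL-4+anti-CD40 had 27 counts with ibrutinib against 9 without (log2 0.95, interval -0.18 to 2.22). The concentration of ibrutinib is not stated unambiguously in the labels, so the values of the inhibitors are set side by side without a test.

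The stimuli alone gave ratios to the unstimulated library of experiment 2 of 1.56 under LPS and 1.14 under IL-4+anti-CD40 for Sqstm1, 0.70 and 0.47 for Tfeb, 0.62 and 0.58 for Nbr1 and 1.21 and 1.26 for Becn1. None of the 9 was 2-fold higher with either stimulus (8.62% and 10.7% of all genes), and Tfeb and Wipi1 were 2-fold lower under IL-4+anti-CD40 (13.7%), whereas none was under LPS (9.88%).

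**Figure D5:**
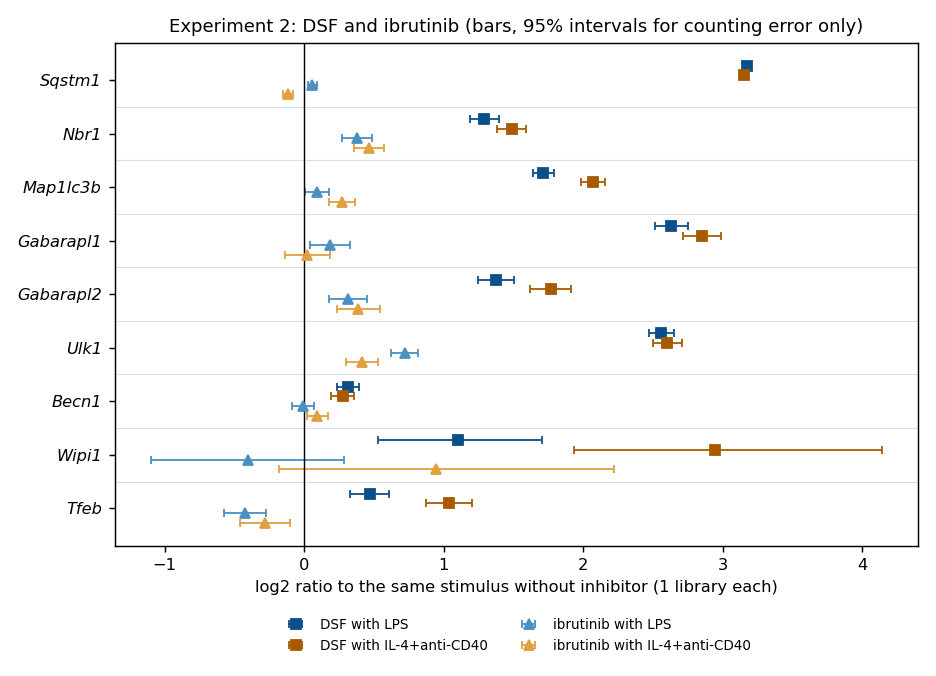
Log2 ratios of experiment 2 to the library given that stimulus alone (x axis; squares, DSF; triangles, ibrutinib; bars, 95% intervals for counting error only; 1 library each). The DSF ratios of Sqstm1, Gabarapl1 and Ulk1 lie between 2.56 and 3.18 and their ibrutinib ratios between -0.11 and 0.72, and the widest bars belong to Wipi1.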

How the data were processed

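RNA of splenic B cells was measured in 20 libraries of experiment 1 (5 groups of 4) and 7 of experiment 2. The submitters' processing notes name Fastp for trimming, HISAT2 2.0.5 for alignment on mm10 and featureCounts 1.5.0-p3 for counting, and the deposited counts per gene are not normalized. The deposited FPKM are the authors' scaling of the same counts by gene length and library total. The annotation release and the strand setting are not given in the sources used here.

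Counts were normalized by TMM and tested with edgeR 4.0.16 (filterByExpr, quasi-likelihood) in R 4.3.3, each comparison fitted on the libraries of its own groups over all genes, with Benjamini-Hochberg adjusted p-values and a threshold of 0.05. The script was tested on simulated data. The deposited FPKM served for levels between genes and, with limma 3.58.1 on log2(FPKM + 0.1) of genes whose mean reached 0.5, as an alternative, which left Wipi1 out. Shares of the ATG8 family were compared by exact permutation. Experiment 2 was compared without a test, as log2 ratios (prior count 2) over genes averaging 10 counts or more. Alternatives included DESeq2 1.42.0, other scalings and filters, a replicate block and leaving out each library. Intervals cover counting error only, at a confidence level of 95%. Positions were checked against GENCODE vM21 on GRCm38 and were equal for all 9 genes, and start-site sequences are from RefSeq on GRCm38.p6.

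The 9 genes and the pathway lists were chosen with earlier results of these data known. All 9 genes are named. Of each pathway list up to 4 genes are named, those called in the same direction in both DSF comparisons without overlap and with the largest mean absolute log2 fold change, and likewise the 5 genes most like Sqstm1 over 20 libraries. Keap1, Tfe3 and Mitf were named in addition, after their values were seen. A marker gene of the B cell list is not reported here, and the sums are over the other 5.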

Additional observations from a re-analysis of the deposited data

Results flagged for a closer look

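In 3 of 45 sets of 4 libraries 1 library lay far from the others by Dixon's criterion, where chance gives about 1 in 20. For Gabarapl2 under LPS and DSF, replicate 1 had 48.0 CPM against 61.6 to 62.7 in the others (the gap is 0.928 of the range), and leaving it out moved the log2 effect of DSF from 0.93 to 1.00. For Wipi1, replicate 2 under LPS had 0.59 CPM against 0.98 to 1.05 (0.853), and replicate 3 under IL-4+anti-CD40 and DSF had 1.13 against 1.93 to 2.09 (0.840), both on few counts (13 and 25).

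The log2 effect of DSF was larger under LPS than under IL-4+anti-CD40, by the interaction test, for Sqstm1 (by 1.03), Gabarapl1 (by 1.13) and Ulk1 (by 0.59). In the fit of all 20 libraries none of the 9 genes was called. In experiment 2 the ratios of Gabarapl1 (2.63 under LPS, 2.85 under IL-4+anti-CD40) and Ulk1 (2.56 and 2.60) were in the other order, with overlapping intervals for counting error.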

How the results depend on the processing

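In experiment 1, of the alternative values for the direction and call of the DSF effect on the 9 genes, 293 kept both, 10 lost the call and 1 turned, and those that did not keep both all concern Becn1, at -0.037 under IL-4+anti-CD40 with total counts. The call of Becn1 there was also lost when genes with any count were kept (0.09, adjusted p = 0.264).

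With total counts as the scaling, the genes called higher than in unstimulated cells went from 2 to 1 for LPS and from 3 to 1 for IL-4+anti-CD40. Those called lower went from 1 to 2 in both groups with DSF, and from 1 to 3 for LPS against IL-4+anti-CD40. On the FPKM with limma, 1 gene was called higher for IL-4+anti-CD40, and 1 instead of 3 had a larger effect of DSF under LPS, against 0 in the fit of all 20 libraries. In experiment 2, a higher minimum (a mean of 50 counts) left 1 gene 2-fold lower for IL-4+anti-CD40, because Wipi1 was then not measured, and a prior count of 0.5 put 1 gene 2-fold higher with ibrutinib and IL-4+anti-CD40. Total counts and the higher minimum moved most DSF ratios there by more than their counting error. Under LPS, that of Sqstm1 ran from 2.87 to 3.33 on the log2 scale over the alternatives and that of Becn1 from 0.0080 to 0.47, and with total counts the genes 2-fold higher went from 7 to 5 under LPS and from 8 to 7 under IL-4+anti-CD40.

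Leaving out 1 library at a time gave 1 to 3 higher genes for LPS and 1 to 3 for IL-4+anti-CD40 against unstimulated cells, 1 to 2 lower genes for LPS and DSF, and 0 to 1 higher genes for LPS against IL-4+anti-CD40. Leaving out libraries in pairs was chosen after seeing the data, and for the split group the calls of such fits rest on the spread within the pair that is left. Without unstimulated replicates 1 and 2 there were 4 higher genes for LPS and 2 lower genes for LPS and DSF, and without replicates 3 and 4 there was 1 higher gene for IL-4+anti-CD40. Without IL-4+anti-CD40 replicates 3 and 4, 1 gene was higher against unstimulated cells and 3 were higher in LPS than in IL-4+anti-CD40, and without replicates 1 and 2, 5 were lower there.

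Directions also turned for log2 values near 0. For LPS against unstimulated cells, Gabarapl1 was -0.10 with total counts, -0.066 to 0.47 without 1 library and -0.42 without unstimulated replicates 3 and 4, where Ulk1 was -0.00075. For LPS and DSF against unstimulated cells, Wipi1 was 0.0093 with DESeq2 size factors, -0.13 to 0.13 without 1 library and 0.072 without that pair. For IL-4+anti-CD40 and DSF, Wipi1 was 0.0011, -0.099 to 0.17 and 0.088 under these settings, and Nbr1 was -0.070 to 0.012 without 1 library and 0.022 without the pair. For LPS against IL-4+anti-CD40, leaving out 1 library gave -0.46 to 0.087 for Sqstm1, -0.10 to 0.040 for Map1lc3b, -0.16 to 0.11 for Ulk1 and -0.12 to 0.018 for Nbr1. Without replicates 3 and 4 of IL-4+anti-CD40 these were 0.49, 0.065, 0.24 and 0.083, and Wipi1 was -0.18 without replicates 1 and 2. For the difference of the DSF effect between the stimuli, Nbr1 was -0.011 with total counts, -0.027 in the fit of all 20 libraries, -0.030 to 0.11 without 1 library and -0.087 without IL-4+anti-CD40 replicates 3 and 4. Without replicates 1 and 2, Map1lc3b was 0.045, Wipi1 0.24 and Tfeb 0.053, and without 1 library Map1lc3b was -0.12 to 0.0036 and Wipi1 -0.36 to 0.010.

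Whether libraries with the same replicate number belong together is not given in the sources used here. Of the same-number correlations between groups, 3 of 40 were over 0.1, with a median of -0.0033. Of the different-number correlations, 3 of 120 were. The highest of all, 0.197, was a same-number one, between replicate 1 of IL-4+anti-CD40 without and with DSF. Most values were thus near 0, but such weak correlations cannot decide whether some libraries were paired. With the replicate block, 1 gene instead of 3 was called higher for IL-4+anti-CD40 against unstimulated cells, Sqstm1 being at 1.14 (adjusted p = 0.135) and Gabarapl1 at 1.23 (adjusted p = 0.126), and Becn1 lost its call with DSF under IL-4+anti-CD40 (0.11, adjusted p = 0.104). Apart from the loss of Wipi1 at the higher minimum, the cause of these changes was not tested. Counts limit Wipi1, and 4 libraries per group cannot go below an exact p of 0.0286.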
